A study of Mus musculus with 7 samples.

Results

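The machinery that moves and attaches chromosomes in mitosis was measured here in LSK cells as 38 genes of the 48440 in the deposited table. The members were chosen by name, as the rows whose gene symbol is 1 of 11 mitotic kinesins, 12 centromere and kinetochore genes, 5 spindle checkpoint genes with the activator Cdc20, 6 mitotic kinases and passenger complex genes, and 4 genes of spindle assembly and cytokinesis. RNA was sequenced as read pairs from lineage-negative, Sca1+, cKit+ (LSK) cells, the bone marrow (BM) population in which hematopoietic stem cells (HSCs) are found together with multipotent progenitors. The 4 wild-type libraries came from lethally irradiated recipients (9.5 Gy) of wild-type BM, and the 3 libraries labelled PROSER1 KO from recipients of BM of mice with a constitutive, endonuclease-mediated loss of PROSER1, a protein that works with the TET enzymes. All cells were taken 77 days after transplantation, with no other treatment, so that both groups share the irradiated C57BL/6 host. The age of the mice, how many mice made up a library and whether remaining host cells were gated out are not given in the sources used here, and the p-values below measure the spread between these libraries.

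In a dividing cell, kinetochores assemble on the centromeres of each chromosome and catch spindle microtubules, kinesin motors slide and shorten those microtubules, and the spindle checkpoint holds back the anaphase-promoting complex (APC/C) until every kinetochore is attached. Aurora and Polo-like kinases correct faulty attachments and start cytokinesis. Transcripts of these genes build up in G2 and mitosis and are scarce in resting cells, and long-term HSCs are mostly at rest while the progenitors gated with them divide more. In sorted bulk RNA, a smaller share of dividing cells and less of these RNAs per cell cannot be told apart.

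Many genes of this class share 2 short promoter motifs, the CCAAT box, which binds NF-Y, and the cell cycle genes homology region (CHR), of which TTTGAA is the classical form and which binds the MuvB proteins. The promoter table of RefSeq (GRCm38.p6), which gives 250 bases before and 50 after each annotated start, held 37 windows for 33 of the 38 members, and Aurkb, Incenp, Kif20a, Spc24 and Tpx2 were not matched. The 4 stretches below are the 80 bases before the annotated start of those members in which this stretch held both motifs and reached at most 30 bases into the gene as GENCODE release M21 draws it. Each is written 5′ to 3′ along the gene, and capitals mark CCAAT and TTTGAA, or ATTGG and TTCAAA where the motif lies on the other strand.
Kif11, chr19:37376302-37376381, forward strand: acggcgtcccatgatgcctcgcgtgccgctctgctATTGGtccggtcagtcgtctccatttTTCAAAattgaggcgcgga
Prc1, chr7:80294396-80294475, forward strand: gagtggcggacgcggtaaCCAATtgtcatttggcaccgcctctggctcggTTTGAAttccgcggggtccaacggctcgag
Cenpn, chr8:116921660-116921739, forward strand: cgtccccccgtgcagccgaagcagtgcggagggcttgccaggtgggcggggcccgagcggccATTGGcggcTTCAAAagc
Cdc20, chr4:118437344-118437423, reverse strand: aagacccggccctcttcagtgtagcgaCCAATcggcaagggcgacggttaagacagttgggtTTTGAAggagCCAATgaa
The last 26 bases shown for Prc1, 10 for Cenpn and 9 for Cdc20 lie within the GENCODE gene.

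Letters were searched on both strands, and the 2 motifs can share at most 1 base. CCAAT stood in 28 of the 37 member windows (75.7%), against 37.4% of 32851 promoter windows of the same length and 37.3% of the 14072 windows of genes tested in these libraries. TTTGAA stood in 25 of 37 (67.6%), against 17.9% and 12.5%. Both motifs stood in 20 of 37 (54.1%), against 6.95% and 4.95%. Of 31 TTTGAA matches, 25 began between 50 bases before and 50 bases after the start, where 62.2% of member windows but 4.94% of all windows held one. CCAAT lay further out, with 36 of 47 matches within the 120 bases before the start. With only the 250 bases before the start, TTTGAA was found in 10 windows and CCAAT in 26, since most TTTGAA matches lay at or after the start. Some genes have several windows, and where these overlap, as in Ect2 and Prc1, the same site was counted again as a further match. A match describes letters, not a bound site. Birc5, Kif18a, Mad2l1 and Nuf2 held neither motif in these windows.

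**Figure D1:**
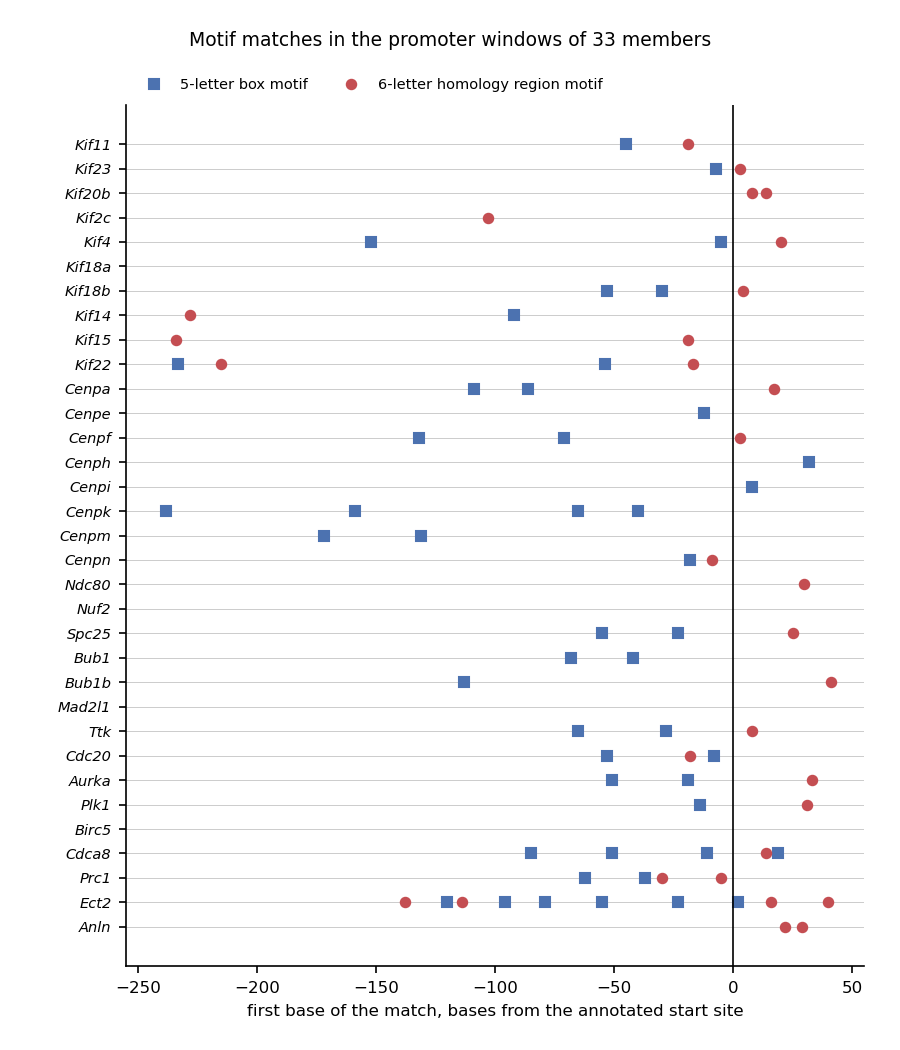
Positions of the 2 promoter motifs in the windows of 33 members, in bases from the annotated start site (vertical line, 0). Squares are the 5-letter CCAAT box and circles the 6-letter homology region motif, and 25 of 31 circles lie between 50 bases before and 50 after the start. In Ect2 and Prc1, whose windows overlap, the same site appears again at a shifted position.

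The libraries held 33143619 to 45140743 read pairs on genes, and each member had between 456 and 7993 read pairs in every library. Libraries within a group were not duplicates of each other, their counts differing beyond sampling noise (27.8 to 88.0 per degree of freedom by chi-square). The targeted gene, Proser1, was higher, not lower, in the libraries labelled PROSER1 KO (normalised count 2338 to 2464, against 2019.4 to 2153). Its log2 fold change was 0.19 (limma adjusted p = 0.204). The deleted part of the gene is not given in the sources used here, so this RNA could not check the labels. Every direction below rests on the labels. The gate genes Ly6a and Kit were present in every library (summed 30791 to 36363 in wild-type and 30232 to 33921 in PROSER1 KO), and none of the defining markers of 8 cell type lists was at 0 in every library. Plasma cell RNA, which LSK cells should lack, was abundant, with immunoglobulin genes taking 5.15% to 12.0% of read pairs in wild-type libraries and 5.80% to 8.71% in PROSER1 KO libraries. Library PROSER1 KO replicate 1 stood apart in Cd3e, a T cell receptor subunit (197, against 5.75 to 24.0 in the others), and in Rag1, the recombinase of lymphoid progenitors (2919.9, against 686 to 1239.5).

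All 38 members had a mean normalised count of at least 10 and were tested among 16251 genes with limma on log2(normalised count + 1). None was called differentially expressed by limma, edgeR or DESeq2 at an adjusted p under 0.05 and a fold change above 1.5, where limma called 0.258% of all genes tested. The lowest limma adjusted p was 0.271, for Prc1. The differences were small and mostly of 1 sign: 37 of 38 members (97.4%) had a log2 fold change above 0, against 50.6% of all genes tested, with a median of 0.17 (1.13-fold) and a range of -0.02 to 0.30, while the median of all genes tested was 0.0015. An unadjusted p under 0.05 was reached by 7 members, all higher in PROSER1 KO (18.4% of the members, against 5.0% of genes tested). The 7 were Kif11, Kif20b, Cenpa, Cenpe, Ndc80, Aurka and Prc1. The groups did not overlap in 1 member, Cenpn (2.63%, against 5.17% of genes tested that were higher without overlap). The 95% intervals of all 38 members ended below 1.5-fold (log2 0.58), the highest bound being 0.52 for Kif18a. So did the intervals of 12534 of the 16251 genes tested. With DESeq2 on the recovered read pairs, 1 member (2.63%) passed an adjusted p of 0.05 without a fold change minimum, against 0.836% of 18903 genes that passed and were higher. That member was Prc1 (DESeq2 adjusted p = 0.0209), which edgeR and limma did not call (edgeR adjusted p = 0.270).

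**Figure D2:**
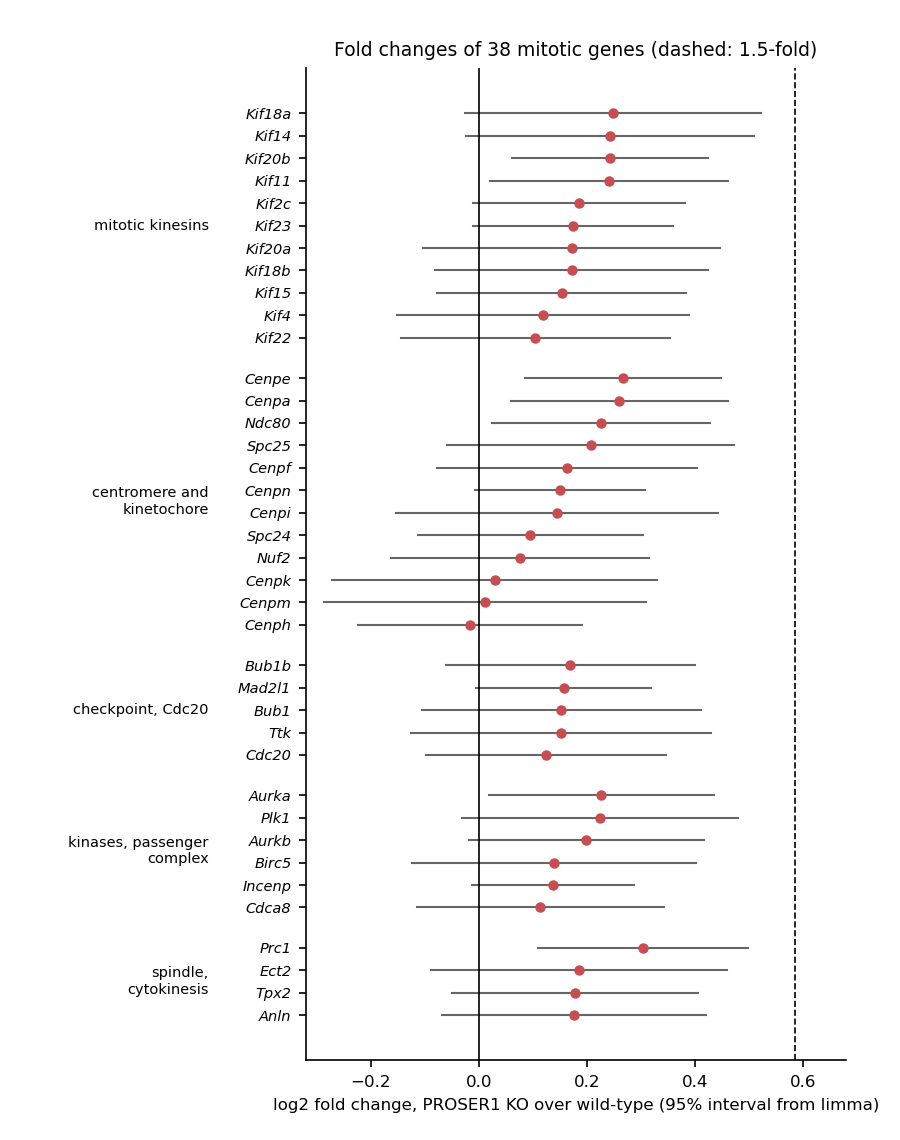
Log2 fold changes of the 38 members (points) in PROSER1 KO over wild-type libraries with the 95% interval from limma (lines), grouped by role, with 0 as a solid and 1.5-fold as a dashed line. 37 points lie right of 0 and no interval reaches the dashed line.

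The members moved together from library to library. Each gene was set against its own mean over the 7 libraries on the log2 scale, and the median deviation of the 38 was, by replicate number, -0.15, -0.11, 0.10 and -0.13 for the wild-type libraries, and -0.11, 0.28 and 0.14 for the PROSER1 KO libraries. Wild-type replicate 3 sat near PROSER1 KO replicate 3, and PROSER1 KO replicate 1 sat among the other wild-type libraries. The group means were -0.07 ± 0.116 (SD, n = 4) and 0.10 ± 0.195 (SD, n = 3), and the groups overlapped. PROSER1 KO replicate 2 held the highest value of 33 of the 38 genes and lay above all wild-type libraries in 36. PROSER1 KO replicate 3 lay above all wild-type libraries in 23 genes. PROSER1 KO replicate 1 did so in 1 gene, lay within the wild-type range in 29 and below it in 8. Among the wild-type libraries, replicate 4 held the lowest value of 14 genes, replicate 1 of 12 and replicate 2 of 4.

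**Figure D3:**
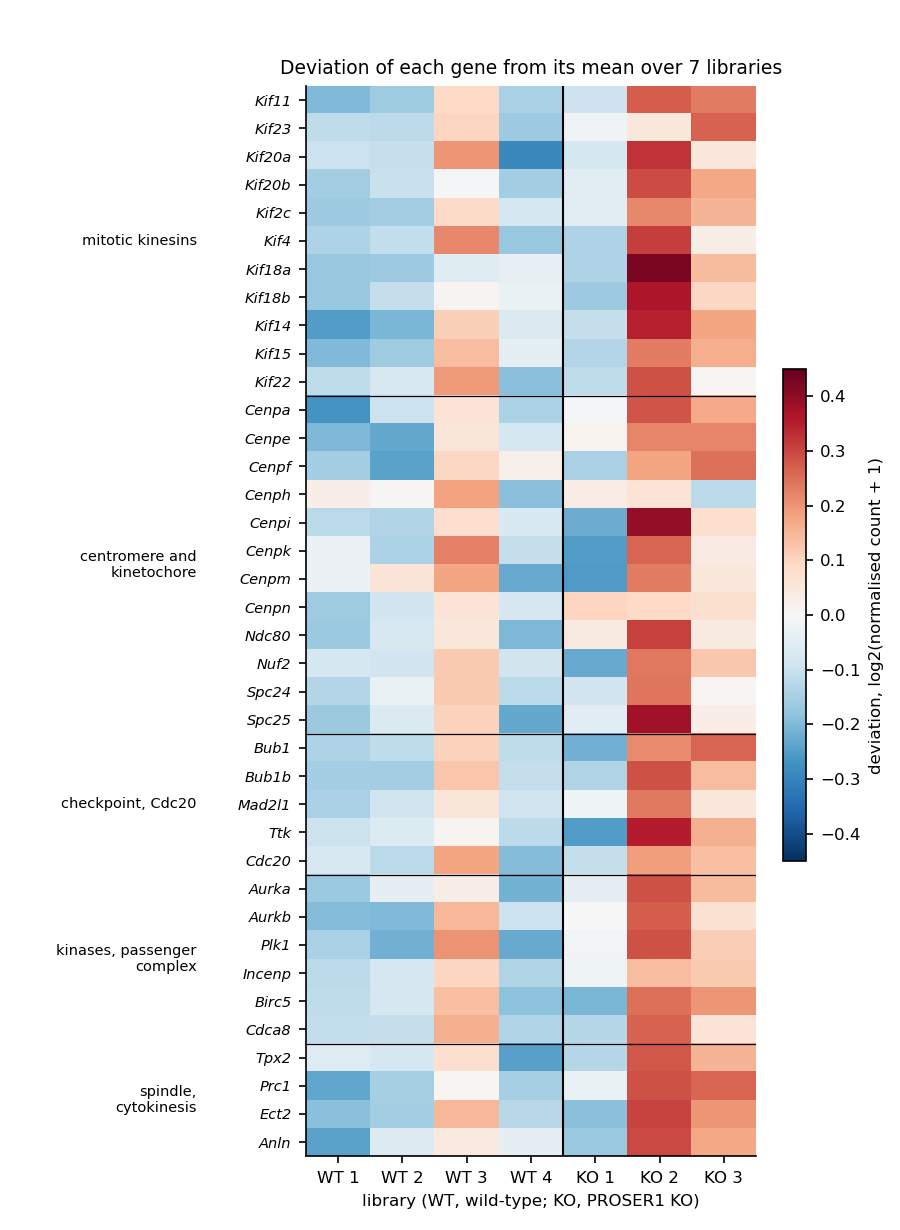
Deviation of each member (rows, by role) from its mean over the 7 libraries (columns), in log2(normalised count + 1), red above and blue below. The columns of wild-type replicate 3 and PROSER1 KO replicates 2 and 3 are mostly red, and PROSER1 KO replicate 1 is mostly blue, like the other wild-type libraries.

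The 703 pairs of members had a median Pearson's r of 0.85 over the 7 libraries, and of 0.85 again after the group means were taken out, which describes libraries they all share. No such r was computed for other genes, so these values have no background. Bub1b (r = 0.99 with the median deviation of the other members) and Ect2 (0.98) followed the rest most closely. Cenph (0.27), Cenpn (0.70), Kif23 (0.73) and Cenpm (0.76) did so least. The counts also shifted when single libraries were left out. Without PROSER1 KO replicate 2, 31 members were higher, the median log2 fold change was 0.08 and 2 members had an unadjusted p under 0.05. Without PROSER1 KO replicate 1, the median was 0.28 and 28 members had such a p. The number was 20 without wild-type replicate 3, 4 without wild-type replicate 1 and 4 without wild-type replicate 4. No member was called by limma in any of these fits. Among all genes tested, limma called 23 without PROSER1 KO replicate 2, 35 without PROSER1 KO replicate 1 and 42 without wild-type replicate 3. The share of all genes with an unadjusted p under 0.05 was not counted in these fits, so the numbers above have no background.

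Some, but not all, of the libraries with high mitotic transcripts also had low summed plasma cell and B-lineage markers. Wild-type replicate 3 and PROSER1 KO replicate 2 had the lowest immunoglobulin shares (5.15% and 5.80%), the lowest summed plasma cell markers (168275 and 197167, against 218086 to 421176) and B-lineage sums of 4153 and 4392, against 5473 to 8343 in the others. PROSER1 KO replicate 3, also high in mitotic genes, did not share this (8.71%, 294312 and 6308). PROSER1 KO replicate 1, low in mitotic genes, had the next lowest immunoglobulin share and plasma cell sum (6.93% and 218086) but the highest B-lineage sum (8343). Jchain alone gave 151607 of the plasma cell sum in wild-type replicate 3 and 179939 in PROSER1 KO replicate 2. Not every B-lineage gene followed the sum. In PROSER1 KO replicate 2, Ebf1 (199) and Rag1 (914) lay above wild-type replicates 2, 3 and 4 (126 to 175 and 686 to 783). The granulocyte and monocyte list was highest in wild-type replicate 3 (30025) and PROSER1 KO replicate 2 (28920), among 23985 to 28326 in the others. Of the 5 plasma cell markers none was higher on average in PROSER1 KO, of the 9 B-lineage markers 5 were, and of the 9 granulocyte and monocyte markers tested 4 were. By limma, 4 of the 9 B-lineage markers were higher at an unadjusted p under 0.05, against 5.0% of genes tested. These were Igll1, Pax5, Ebf1 and Rag1 (log2 fold changes 1.58, 0.99, 0.75 and 0.80), each highest in PROSER1 KO replicate 1. Such a p was reached by 3 granulocyte and monocyte and 3 long-term HSC markers, in both directions, and by at most 1 in every other list. The summed long-term HSC markers ran from 25563 to 30209 in wild-type and from 24622 to 28918 in PROSER1 KO, with 7 of 10 higher on average, and those of multipotent progenitors from 95444 to 120602 against 100791 to 119573, with 3 of 6 higher. Wild-type replicate 1 (120602) and PROSER1 KO replicate 1 (119573), both low in mitotic genes, had the highest multipotent progenitor sums, against 95444 to 107999 in the others. Of the 8 lists, which also covered erythroid and megakaryocyte cells and T and innate lymphoid cells, 0 held a called gene. The part of these cells in the mitotic values was not tested.

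Among the motors, all 11 kinesins had a higher mean in PROSER1 KO, with a median log2 fold change of 0.17. Kif20b, a motor of late mitosis and cytokinesis, had normalised counts of 2483, 2580.0, 2757 and 2477 in the 4 wild-type libraries (in the order of their replicate numbers, as for every gene below), against 2667, 3386 and 3119 in the 3 PROSER1 KO libraries. Only PROSER1 KO replicate 1 lay inside the wild-type range. The log2 fold change was 0.24 (standard error, SE, 0.0806, limma adjusted p = 0.365). Kif11, the tetrameric motor that pushes the spindle poles apart, had 4880.2, 5019, 5959.7 and 5071 in wild-type libraries, against 5253, 6764 and 6597 in PROSER1 KO. Wild-type replicate 3 lay above PROSER1 KO replicate 1, and the log2 fold change was 0.24 (SE 0.0980, limma adjusted p = 0.458). Kif2c, which shortens microtubules at the centromere, had 1089.5, 1094, 1295 and 1155 in wild-type libraries, against 1179, 1419.9 and 1357 in PROSER1 KO. The groups overlapped in the same way (log2 fold change 0.19, 95% interval -0.01 to 0.38).

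Kif18a, which damps chromosome movement at microtubule ends, reached 996 in PROSER1 KO replicate 2 and 659 to 818 in the other 6 libraries. Kif14, a motor of cytokinesis, ran from 1102 to 1414 in wild-type and from 1218 to 1672 in PROSER1 KO libraries. The motors with the smallest differences were the chromokinesins, which sit on chromosome arms. Kif4 differed by a log2 fold change of 0.12 and Kif22 by 0.10, and both turned to -0.0023 and -0.0086 without PROSER1 KO replicate 2. Their pseudogenes Kif4-ps and Kif22-ps were listed at 0 in every library. Kif15, the motor that can stand in for Kif11, and Kif18b, a plus-end motor, had log2 fold changes of 0.15 and 0.17. Kif23, the motor subunit of centralspindlin, was highest in PROSER1 KO replicate 3 (4271) rather than replicate 2 (3669.9). Kif20a, which carries the passenger complex to the spindle midzone, shares 1271 exon bases with Cdc23 on the opposite strand, and had a log2 fold change of 0.17.

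Of the 12 centromere and kinetochore genes, 11 had a higher mean in PROSER1 KO, with a median of 0.15. Cenpe, the kinesin that carries chromosomes to the spindle equator, had 2768, 2716, 3309 and 3018 in wild-type libraries, against 3226, 3716 and 3714 in PROSER1 KO. PROSER1 KO replicates 2 and 3 were almost equal and above all wild-type libraries, and replicate 1 lay below wild-type replicate 3. The log2 fold change was 0.27 (SE 0.0808, limma adjusted p = 0.309). Cenpa, the histone variant that marks centromeric chromatin, had 2208, 2486, 2778 and 2407 in wild-type libraries, against 2642, 3238 and 2994 in PROSER1 KO. Again only PROSER1 KO replicate 1 overlapped the wild-type range (log2 fold change 0.26, SE 0.0893, limma adjusted p = 0.380).

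Ndc80, Nuf2, Spc24 and Spc25 are the 4 subunits of the rod that binds microtubules at the kinetochore. Ndc80 had 1101, 1176, 1280.4 and 1075 in wild-type libraries, against 1269.5, 1531 and 1271 in PROSER1 KO. Wild-type replicate 3 lay above 2 of the 3 PROSER1 KO libraries, and the log2 fold change was 0.23 (SE 0.0897, limma adjusted p = 0.447). Spc25 had a log2 fold change of 0.21, Spc24 of 0.10 and Nuf2 of 0.08, with intervals that all included 0. Nuf2 turned to -0.02 without PROSER1 KO replicate 2.

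The inner kinetochore genes, whose proteins hold the centromeric nucleosome, differed from 1 another. Cenph was the 1 member with a log2 fold change below 0. Its normalised counts were 1045, 1028, 1162 and 899.6 in wild-type libraries, against 1047, 1070.4 and 941 in PROSER1 KO. The highest and the lowest of the 7 were both wild-type, and the log2 fold change of -0.02 (95% interval -0.22 to 0.19) turned to 0.04 without wild-type replicate 3 or without PROSER1 KO replicate 3. Cenpk and Cenpm differed by log2 fold changes of 0.03 and 0.01, which turned negative without PROSER1 KO replicate 2 (-0.09 and -0.10), without wild-type replicate 4 (-0.0022 and -0.06), and, for Cenpk, without wild-type replicate 2 (-0.01) or, for Cenpm, without PROSER1 KO replicate 3 (-0.0079). Cenpi had a log2 fold change of 0.15, which rested on PROSER1 KO replicate 2 (1004, against 653 to 805 elsewhere) and was -0.01 without it. Cenpn, which reads the Cenpa nucleosome, had 821, 865, 957 and 872 in wild-type libraries, against 982, 977 and 965 in PROSER1 KO. Its groups did not overlap, PROSER1 KO replicate 1 was here the highest library, and the log2 fold change was 0.15 (95% interval -0.01 to 0.31). Cenpf, a large protein of the outer kinetochore, had a log2 fold change of 0.16 and was highest in PROSER1 KO replicate 3 (4122).

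**Figure D4:**
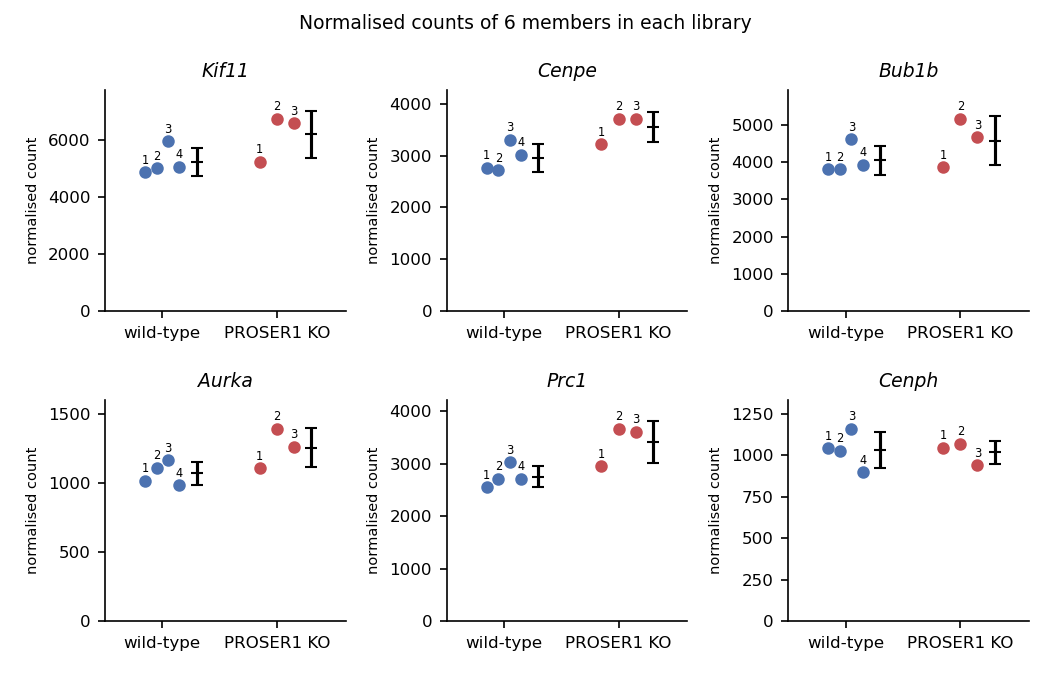
Normalised counts (y axis, from 0) of 6 members in each library, numbered by replicate, with the mean and SD beside each group (wild-type n = 4, PROSER1 KO n = 3). In Kif11, Cenpe, Bub1b, Aurka and Prc1 replicates 2 and 3 of PROSER1 KO are the upper points and replicate 1 lies within the wild-type range, while the groups coincide in Cenph.

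All 5 checkpoint genes, Cdc20 included, had a higher mean in PROSER1 KO, with a median log2 fold change of 0.15, and all 5 intervals included 0. Mad2l1 encodes Mad2, which captures Cdc20 while kinetochores are unattached. It had 2674, 2779, 3070.1 and 2778 in wild-type libraries, against 2919.8, 3489 and 3057 in PROSER1 KO. Only PROSER1 KO replicate 2 lay above wild-type replicate 3 (log2 fold change 0.16, SE 0.0724, limma adjusted p = 0.527). Bub1b encodes BubR1, the pseudokinase of the mitotic checkpoint complex. Its counts were 3819, 3813, 4628 and 3940.4 in wild-type libraries, against 3869, 5175 and 4675 in PROSER1 KO. Wild-type replicate 3 stood clear of the other wild-type libraries and just below PROSER1 KO replicate 3 (log2 fold change 0.17, SE 0.102). Bub1, a kinase that builds the checkpoint platform, had 1589, 1618, 1882 and 1617 in wild-type libraries, against 1507, 2029 and 2101 in PROSER1 KO. PROSER1 KO replicate 1 was the lowest of all 7 (log2 fold change 0.15, SE 0.115). Ttk, the kinase that starts checkpoint signalling, spanned 1101 to 1206 in wild-type and 1002 to 1525 in PROSER1 KO libraries. Cdc20 differed by 0.12 on the log2 scale.

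The 6 kinase and passenger complex genes all had a higher mean in PROSER1 KO, with a median of 0.17. Aurka, the kinase of the spindle poles, had 1019, 1113, 1169 and 988 in wild-type libraries, against 1111, 1397 and 1264 in PROSER1 KO. PROSER1 KO replicates 2 and 3 lay above all wild-type libraries (log2 fold change 0.23, SE 0.0926, limma adjusted p = 0.460). Aurkb, the kinase of the chromosomal passenger complex, had 1989.6, 1987, 2526 and 2132 in wild-type libraries, against 2278, 2753 and 2391 in PROSER1 KO. Wild-type replicate 3 exceeded PROSER1 KO replicates 1 and 3 (log2 fold change 0.20, SE 0.0966). Incenp, the scaffold of that complex, had 4696, 4841, 5461 and 4642 in wild-type libraries, against 5037, 5613 and 5531 in PROSER1 KO. Its standard error was the smallest of the members (0.0669) and its log2 fold change 0.14. The other passenger subunits, Birc5 (survivin) and Cdca8 (borealin), had log2 fold changes of 0.14 and 0.11. Plk1, the Polo-like kinase, had 0.22 and spanned 1182 to 1592 in wild-type and 1373 to 1687 in PROSER1 KO libraries.

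The 4 genes of spindle assembly and cytokinesis had a median of 0.18 and held the largest difference of the 38. Prc1, which bundles the antiparallel microtubules of the spindle midzone, had 2558, 2714, 3025 and 2715 in wild-type libraries, against 2947, 3672 and 3611 in PROSER1 KO. The mean was 2753 ± 196 (SD, n = 4) in wild-type against 3409.8 ± 402 (SD, n = 3), and PROSER1 KO replicate 1 lay below wild-type replicate 3. The log2 fold change was 0.30 (1.23-fold, SE 0.0863, 95% interval 0.11 to 0.50). It was 0.25 without PROSER1 KO replicate 2 and 0.41 without PROSER1 KO replicate 1. Prc1 shares 911 exon bases with Rccd1 on the opposite strand. Tpx2, which activates Aurka on the spindle, had 3524, 3469, 3868 and 3093 in wild-type libraries, against 3356, 4453 and 4077 in PROSER1 KO. Anln, the scaffold of the contractile ring, had 1659.7, 1879.5, 2023 and 1904 in wild-type libraries, against 1747, 2410.0 and 2211 in PROSER1 KO. Both genes differed by 0.18 on the log2 scale, and in both PROSER1 KO replicate 1 fell within the wild-type range. Ect2, the exchange factor that activates RhoA for the contractile ring, had a log2 fold change of 0.19.

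Between genes, levels were compared as normalised counts per kilobase of exon in GENCODE release M21. In wild-type libraries Cdc20 stood highest (1357 ± 158, SD, n = 4), followed by Incenp (1134 ± 87.1), Bub1b (947 ± 91.1), Tpx2 (746 ± 67.8), Aurkb (733 ± 86.3) and Kif11 (701 ± 65.9). Tpx2, Aurkb and Kif11 did not differ from each other beyond their SDs. Kif18a was the lowest (70.1 ± 3.44), below Cenpk (118 ± 14.3), Kif14 (118 ± 13.6) and Cenpi (129 ± 8.88). Exon lengths count every annotated isoform, which lowers the level of genes with long, rarely used exons. The 38 genes lie on 16 chromosomes. Exons of 9 members overlap a gene on the opposite strand. The library kit was directional, but the strand setting of the counting is not given in the sources used here. Counts of those pairs may therefore be affected. The 9 are Cdc20, Cdca8, Cenpk, Kif18a, Kif20a, Kif22, Kif4, Plk1 and Prc1.

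The rest of the mitotic programme was looked at in 102 other genes of mitotic entry, kinetochore, checkpoint and anaphase, cohesin and condensin, and spindle. Of these, 86 had a higher mean in PROSER1 KO and 16 a lower one, with a median log2 fold change of 0.09, and none was called by limma, edgeR or DESeq2. By limma 14 were higher (13.7%, against 5.0% of genes tested) and 1 lower at an unadjusted p under 0.05. DESeq2 gave 2 of the 102 an adjusted p under 0.05 without a fold change minimum, where 0.836% of genes passed and were higher. In 4 of the 102 (3.92%, against 5.17% of genes tested) the groups were higher without overlap. The count of 15 was 5 without PROSER1 KO replicate 2 or 3, 40 without PROSER1 KO replicate 1, 32 without wild-type replicate 3, 6 without wild-type replicate 2 and 7 without wild-type replicate 1 or 4. No share of all genes tested was counted for these fits. Dlgap5, a spindle protein that stabilises kinetochore fibres, had 1189.5, 1287, 1641 and 1311 in wild-type libraries, against 1724, 1736 and 1802 in PROSER1 KO. These groups did not overlap (log2 fold change 0.38, limma adjusted p = 0.222). Hjurp, the chaperone that loads Cenpa, spanned 13836 to 15519 in wild-type and 16117 to 17325 in PROSER1 KO libraries, also without overlap (log2 fold change 0.19, limma adjusted p = 0.282). Knl1, the kinetochore platform for Bub1 and Bub1b, had a log2 fold change of 0.25 (limma adjusted p = 0.375). All 18 cohesin and condensin genes had a higher mean, with a median of 0.07. The 1 gene lower at an unadjusted p under 0.05 was Bora, the activator of Plk1 and Aurka (1591 to 1936 in wild-type and 1521 to 1614 in PROSER1 KO libraries, limma adjusted p = 0.435).

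DNA replication genes, which mark S phase rather than mitosis, gave smaller values. Of 40, 33 had a higher mean in PROSER1 KO, the median log2 fold change was 0.05, and none had an unadjusted p under 0.05 with limma or was called, while DESeq2 gave 1 an unadjusted p under 0.05 and edgeR called none. Without PROSER1 KO replicate 2 the median was -0.02 and 18 of 40 were higher. Cdc6, which loads the replicative helicase, had the smallest p (log2 fold change 0.17, limma adjusted p = 0.522), at 1783 to 1962 in the wild-type group against 1986 to 2445 in PROSER1 KO. Rrm2, a subunit of ribonucleotide reductase, differed by 0.13 and Clspn, a replication checkpoint adaptor, by 0.10. Per library, the median deviation of the replication genes was -0.02, 0.03, 0.05 and -0.14 in wild-type libraries, against -0.05, 0.16 and -0.0081 in PROSER1 KO. The other mitotic genes had -0.10, -0.05, 0.08 and -0.09 in wild-type libraries, against -0.06, 0.16 and 0.08 in PROSER1 KO. PROSER1 KO replicate 2 was thus the highest library of all 3 lists, whereas PROSER1 KO replicate 3 was above 0 in both mitotic lists and near 0 in the replication list. No test of the difference between the lists was made.

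**Figure D5:**
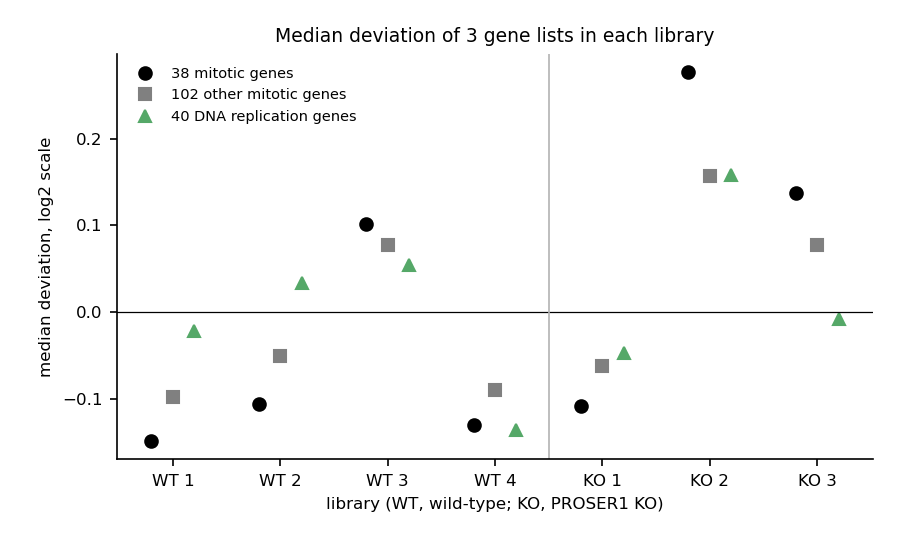
Median deviation (log2 scale) of the 38 members, 102 other mitotic genes and 40 DNA replication genes from each gene's mean, in each library. PROSER1 KO replicate 2 is highest for every list (0.28, 0.16 and 0.16), and PROSER1 KO replicate 1 is below 0 for every list, as are wild-type replicates 1 and 4.

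The 33 members with a promoter window were also set out by their motifs. The 18 that held both CCAAT and TTTGAA had a median log2 fold change of 0.17 (range 0.10 to 0.30), the 11 with 1 of them 0.15 (-0.02 to 0.27), and the 4 with neither 0.15 (0.08 to 0.25). Prc1 and Kif11, shown above, belong to the first group, and Cenpe and Cenph, with a CCAAT but no TTTGAA, to the second. These ranges overlapped.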

How the data were processed

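RNA of LSK cells was sequenced for 7 libraries (wild-type, n = 4, PROSER1 KO, n = 3), grouped by their labels. The authors trimmed reads with Trimmomatic, mapped them with STAR to mm10 (GRCm38.p6), counted read pairs with featureCounts and deposited a normalised signal per gene, the counts divided by 1 DESeq2 size factor per library. Dividing a library by its smallest value above 0 gave back read pairs (100% whole within 0.01). The methods name GENCODE M25 and the file header vM10. Positions are from M21, and 0 columns were left unused.

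limma 3.58.1 in R 4.3.3 (trended eBayes) compared groups on log2(value + 1), over the 16251 genes whose mean was 10 or more. A called gene had an adjusted p (Benjamini-Hochberg over all these genes) under 0.05 together with a change beyond 1.5-fold. edgeR 4.0.16 and DESeq2 1.42.0 on recovered read pairs, other pseudocounts, filters and scalings, the replicate block and each library left out were alternatives. Depth was 33143619 to 45140743 read pairs, and 3 read pairs, the limit for a count of 0, equal 2.54 to 3.48 normalised counts. Scripts were tested on simulated data.

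Members and lists were chosen with earlier results of these data known. Values of every library are given for the 3 members of each role with the largest moderated t and for members with a log2 fold change below 0, and of the other lists the 3 genes with the smallest p were named. Cenpn, for which every library is also given, Bora and genes given by range were named after their values were seen. The 8 marker lists came from general knowledge.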

Additional observations from a re-analysis of the deposited data

Results flagged for a closer look

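In the wild-type group, 1 library lay far from the other 3 in 7 of the 38 members and in their median, by Dixon's test at 0.829 for 4 samples. It was wild-type replicate 3 each time, as the highest value. Its normalised counts were 2163 for Kif4, 1846 for Nuf2, 1882 for Bub1, 4628 for Bub1b, 1592 for Plk1, 2565 for Cdca8 and 2486 for Ect2, and its median deviation over the 38 genes was 0.10 on the log2 scale, against -0.15 to -0.11 in the other wild-type libraries. In all, 41 groups were tested and 8 stood out, where chance gives about 1 in 20, and the genes share the same libraries and moved together, so that these are not 8 separate observations. Without wild-type replicate 3, all 38 members had a higher mean in PROSER1 KO, the median log2 fold change was 0.22 instead of 0.17, and none was called.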

How the results depend on the processing

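No member was called under any alternative with the fold change minimum, and the adjusted p of 0.0209 for Prc1 with DESeq2 was the only one under 0.05. The number of members higher was 37 under every alternative other than the replicate block (35) and the omission of single libraries (31 to 38), and the median log2 fold change lay between 0.17 and 0.18 except in those fits (0.15 with the block, 0.08 to 0.28 with a library left out). Members with an unadjusted p under 0.05 numbered 4 without the mean-variance trend, 12 with robust variance estimates and 16 with DESeq2, instead of 7, and other mitotic genes 5 instead of 15 without the trend. These tests also differed over all genes, calling 17 without the trend, 80 with robust estimates and 165 with DESeq2, instead of 42. The share of all genes with an unadjusted p under 0.05 was not counted for any alternative. Of the replication genes, 1 had an unadjusted p under 0.05 without the filter, with robust estimates and with DESeq2. With single libraries left out, the numbers with such a p ran from 2 to 28 for the members, 5 to 40 for other mitotic genes and 0 to 3 for replication genes, of which 18 to 36 were higher with a median of -0.017 to 0.10. Log2 fold changes that changed sign then ran from -0.0023 to 0.22 (Kif4), -0.0086 to 0.19 (Kif22), -0.011 to 0.30 (Cenpi), -0.093 to 0.16 (Cenpk), -0.10 to 0.14 (Cenpm), -0.020 to 0.21 (Nuf2) and -0.081 to 0.042 (Cenph). Intervals ended below 1.5-fold in 36 members without PROSER1 KO replicate 1, in 37 without PROSER1 KO replicate 3 and in 38 in all other limma fits. The cause of these shifts was not tested. TTTGAA was found in 10 member windows instead of 25 with only the bases before the start (27%, against 16% of all windows).

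Same-numbered libraries did not deviate together (r = 0.02, 0.06 and -0.11), so the numbers were not taken as pairs. With the replicate number as a block, wild-type replicate 4 adds nothing to the comparison, Cenpk had -0.0022 and Cenpm -0.063, 35 genes of all tested were called instead of 42, and no member was.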
